A study of Rattus norvegicus with 9 samples.

Results

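The Nogo receptor complex genes are the 8 genes Rtn4, Omg, Rtn4r, Rtn4rl1, Rtn4rl2, Lingo1, Ngfr and Tnfrsf19. They were chosen by name, from what their products are known to do, with earlier results of these data known, and each was found on 1 row among the 30507 rows of the count table. The data are RNA sequencing of the spinal cord of wild-type female Sprague-Dawley rats, 8 weeks old at the start, taken at 35 dpi (days post-injury) from segments T9 to T11. The Sham group (3 rats) had a laminectomy without a contusion, although the labels call these rats normal and untreated. The SCI group (3 rats) had a spinal cord injury, a contusion of 150 kdyn at T10, and no electrode. The SCI + SCS group (3 rats) had the same contusion and an epidural electrode through which the cord was stimulated at 10 kHz and 0.12 mA for 2 h a day from 1 dpi. Rats with an electrode and no stimulation were not analysed here, so the implant and the stimulation cannot be told apart, and the rats were selected for lowered mechanical thresholds after injury.

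Nogo receptor signaling is a brake on axon growth in the adult central nervous system. Proteins on the surface of myelin and oligodendrocytes (Nogo-A from Rtn4, OMgp from Omg and the myelin-associated glycoprotein from Mag) bind the Nogo receptor, which is anchored in the axon's membrane by a lipid and has no part inside the cell. It signals together with LINGO-1 and with p75 (from Ngfr) or TROY (from Tnfrsf19), which pass the signal on to the GTPase RhoA and its kinase ROCK, and the growth cone then collapses. These roles are background and were not measured here.

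The genes lie on 6 chromosomes. In the build that the submitters' processing notes name, mRatBN7.2, the files place Rtn4 (ENSRNOG00000004621) at chr14:103449930-103497686 on the plus strand, overlapping Eml6 on the opposite strand. They place Omg (ENSRNOG00000014107) at chr10:64461350-64464084 on the minus strand, wholly within the span of Nf1 on the plus strand. Rtn4r (ENSRNOG00000030920) is at chr11:82844309-82869466 on the minus strand, Rtn4rl1 (ENSRNOG00000003121) at chr10:60043002-60116978 on the plus strand and Rtn4rl2 (ENSRNOG00000021513) at chr3:69955169-69971488 on the minus strand. Lingo1 (ENSRNOG00000017193) is at chr8:57010007-57193155, Ngfr (ENSRNOG00000005392) at chr10:80515299-80533518 and Tnfrsf19 (ENSRNOG00000014265) at chr15:35092206-35180795, all on the minus strand. All 8 genes are listed as protein-coding.

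The 250 bases before the start were read from RefSeq for 5 of the 8 genes (build GRCr8), Rtn4, Rtn4rl1 and Ngfr having no entry in the table used. They are shown to give the range of base composition among these 5 genes. Of the genes here that are rich in CG dinucleotides, Rtn4r was called higher after SCI, Lingo1 was called lower and Rtn4rl2 was not called. The first is Omg (GRCr8, chr10:64962051-64962300, minus strand), the second Rtn4r (GRCr8, chr11:96373555-96373804, minus strand) and the third Tnfrsf19 (GRCr8, chr15:39334567-39334816, minus strand), each written 5′ to 3′ with every CG dinucleotide in capitals.
Omg: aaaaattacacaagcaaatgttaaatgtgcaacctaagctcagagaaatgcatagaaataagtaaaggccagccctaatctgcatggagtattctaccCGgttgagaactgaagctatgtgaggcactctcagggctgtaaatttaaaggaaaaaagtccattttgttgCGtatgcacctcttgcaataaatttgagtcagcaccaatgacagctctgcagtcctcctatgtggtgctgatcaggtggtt
Rtn4r: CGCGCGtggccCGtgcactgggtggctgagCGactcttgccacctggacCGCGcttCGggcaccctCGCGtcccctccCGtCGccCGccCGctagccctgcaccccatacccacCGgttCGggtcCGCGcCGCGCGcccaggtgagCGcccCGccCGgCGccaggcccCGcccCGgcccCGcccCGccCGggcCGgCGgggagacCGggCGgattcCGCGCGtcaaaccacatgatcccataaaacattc
Tnfrsf19: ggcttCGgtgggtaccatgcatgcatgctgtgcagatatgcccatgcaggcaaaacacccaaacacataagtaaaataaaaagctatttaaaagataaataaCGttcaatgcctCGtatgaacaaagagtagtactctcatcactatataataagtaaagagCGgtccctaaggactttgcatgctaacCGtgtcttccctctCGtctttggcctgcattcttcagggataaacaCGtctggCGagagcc
The Omg stretch held 2 CG dinucleotides and was 41.6% G or C, and the Rtn4r stretch held 37 and was 76.4% G or C. The Tnfrsf19 stretch held 8 and was 43.6% G or C. The stretch of Lingo1, the co-receptor, held 34, and that of Rtn4rl2 held 29. Over 33469 promoters of this length the median was 5. Fewer CG dinucleotides than in Omg were found in 18.1% of promoters, and fewer than in Rtn4r in 98.1%. The GC box GGGCGG, searched on both strands and therefore also as CCGCCC, was in 30.5% of the promoters. Counting only matches that do not overlap, it occurred 5 times for Rtn4r, 2 times for Rtn4rl2 and not in these windows of Omg, Lingo1 or Tnfrsf19. CCAAT, searched also as ATTGG, was in 34.0% of the promoters and, of the 5 genes, in the window of Omg. These are descriptions of sequence in genes of unequal level, and were not tested against expression.

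Levels are given in CPM (counts as a share of the library total, scaled by TMM, which evens out library composition over the 9 libraries). Library totals lay between 62844376 and 88358570 counts, so the level that 3 counts stand for was at most 0.0477 CPM before scaling by TMM. These floors cover counting error only. The tissue held the markers of its own cells, with 8 of 8 oligodendrocyte, 8 of 8 neuronal and 6 of 6 astrocyte genes detected in every library. One library stood apart. In Sham replicate 2 the summed level of 8 sensory neuron genes was 348.7 CPM, against 7.17 and 9.47 CPM in the other Sham libraries, 9.88 to 11.5 CPM in the SCI libraries and 9.79 to 27.9 CPM in the SCI + SCS libraries. This list was written after these values were seen. Results that rest on this library are given with and without it. Skeletal muscle genes, of which 4 of 6 symbols were found, summed to 2744 and 698.4 CPM in SCI replicates 1 and 3 and to at most 39.7 CPM elsewhere, and their part in the results was not tested.

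Compared with the Sham group, 6 of the 8 genes changed in the SCI group in edgeR's quasi-likelihood test, with p-values adjusted after Benjamini and Hochberg over 17822 genes (adjusted p under 0.05). Both ligand genes, Rtn4 and Omg, fell, as did Rtn4rl1, Lingo1 and Tnfrsf19, while Rtn4r rose. Of all genes tested, 24.3% were called higher and 25.0% lower. A |log2FC| over 1 was also reached by 4 of the 8 genes tested, against 26.9% of all genes tested. For the same 6 genes no Sham library entered the SCI range, which held for 63.6% of all genes tested. The median log2FC was -1.04 over the 8 genes and 0.02 over all genes tested. In bulk tissue, fewer cells of a type and less RNA per cell cannot be told apart.

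**Figure D1:**
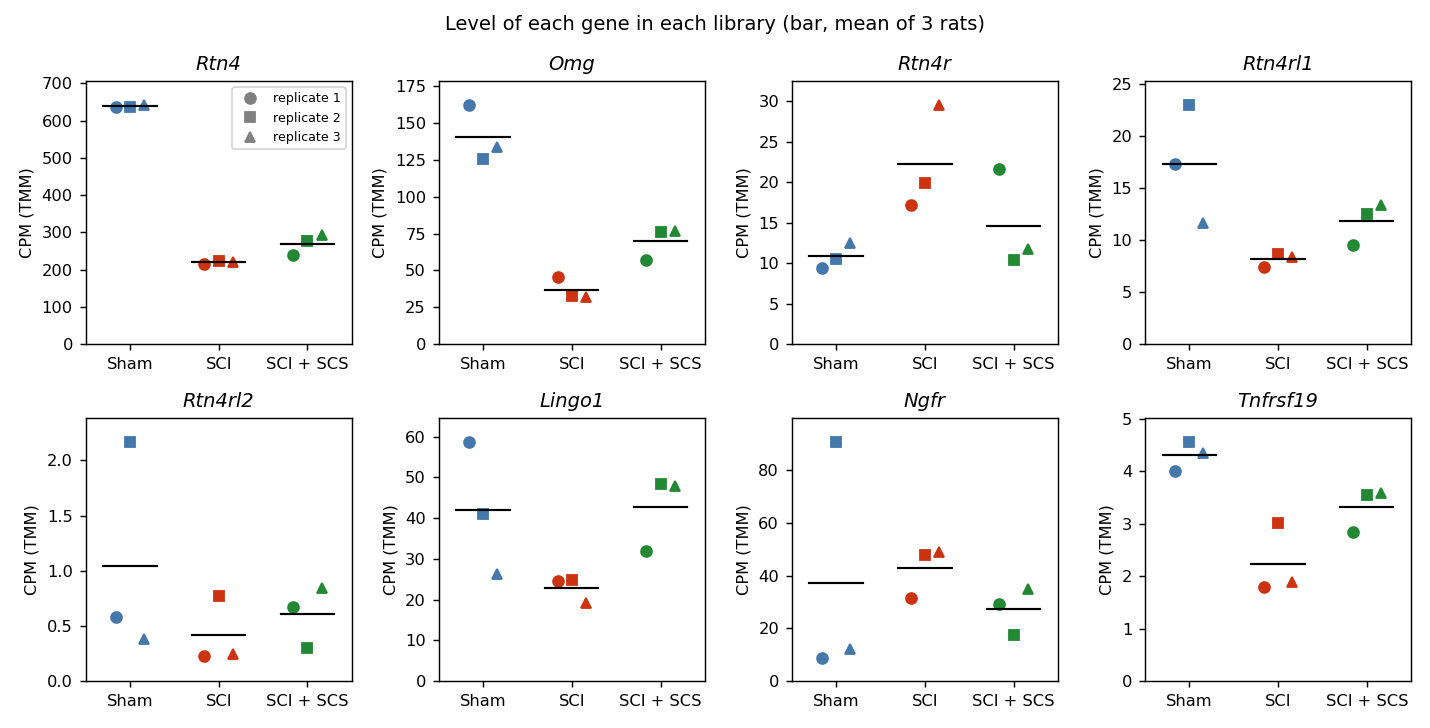
Level of the 8 genes in each of the 9 libraries, in CPM on linear axes that start at 0, with 1 symbol per rat and a bar at the mean of the 3 rats of a group. Rtn4 lay between 637.1 and 641.9 CPM in the Sham libraries and at 293.2 CPM or less in all others, and Ngfr reached 90.8 CPM in Sham replicate 2 only.

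Rtn4, which encodes Nogo-A and the shorter reticulon-4 proteins that shape the endoplasmic reticulum, was the most abundant of the genes per length (given below in FPKM). Its level was 637.1, 637.7 and 641.9 CPM in Sham replicates 1, 2 and 3, 216.5, 223.5 and 221.7 CPM in the SCI replicates, and 239.8, 276.5 and 293.2 CPM in the SCI + SCS replicates. Every Sham library thus stood above every injured one, and the spread within the Sham and SCI groups was small. Rtn4 fell 2.93-fold in the SCI group (log2FC = -1.55, standard error 0.09, adjusted p = 0.000783 by Benjamini-Hochberg in the edgeR test). The log2FC lay between -1.57 and -1.54 when each of the 6 libraries was left out in turn, and the gene was called every time. Compared with the Sham group, the SCI + SCS group was also lower, by 2.36-fold (log2FC = -1.24, 95% interval -1.48 to -1.005, adjusted p = 0.00315 by Benjamini-Hochberg in the same edgeR test).

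Between the injured groups, the 3 SCI + SCS libraries were above the 3 SCI libraries for Rtn4, with a log2FC of 0.30 (95% interval 0.07 to 0.53) that did not pass the adjustment (adjusted p = 0.136 by Benjamini-Hochberg in the edgeR test). On the deposited FPKM scale (counts divided by transcript length and by the library total), the same gene stood at 68.2, 61.1 and 101.0 FPKM in the SCI libraries and at 59.2, 104.9 and 67.1 FPKM in the SCI + SCS libraries, which overlap. The log2FC was then -0.0045. The files' own counts and FPKM imply the length by which a count was divided, once each library's scale is removed. For Rtn4 this length was 3300, 3303 and 3069 bases in the Sham libraries, 2828, 3814 and 2284 bases in the SCI libraries, and 4134, 2667 and 4460 bases in the SCI + SCS libraries. Its highest value was 1.95 times its lowest, a wider range than in 99.5% of the 12907 genes with at least 100 counts in every library, whose median ratio was 1.01. The other 7 genes had ratios between 1.003 and 1.21, with the widest in Lingo1. FPKM of Rtn4 therefore carry a length that differs between libraries, and its groups were compared on counts.

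**Figure D2:**
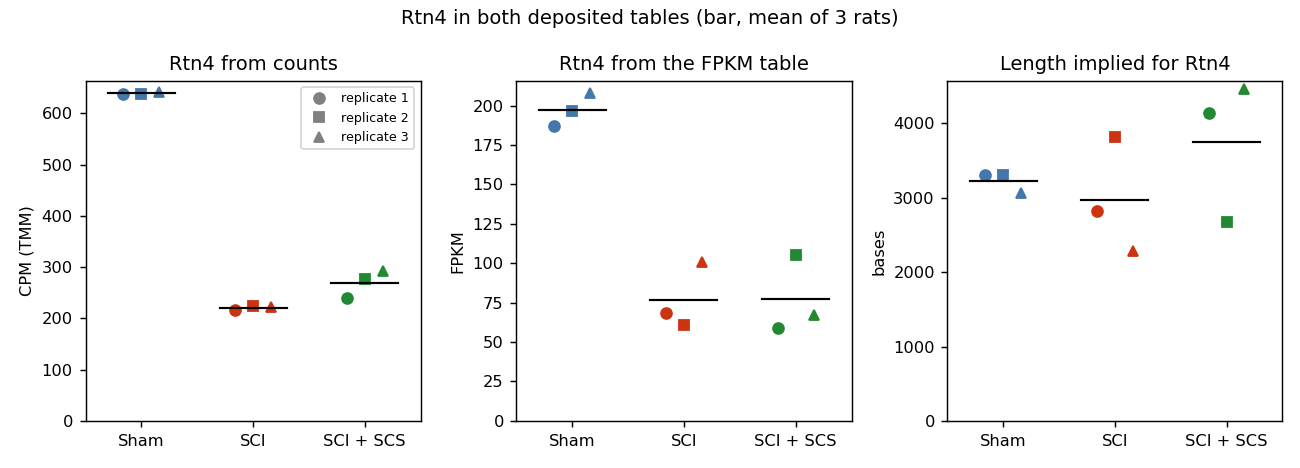
Rtn4 in each library as CPM from the counts (left), as deposited FPKM (middle) and as the length in bases implied by both tables (right), with a bar at each group's mean. The SCI libraries sit at 216.5 to 223.5 CPM but at 61.1 to 101.0 FPKM, and the implied length runs from 2284 to 4460 bases.

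Omg encodes OMgp, the oligodendrocyte myelin glycoprotein, a lipid-anchored ligand of the Nogo receptor. Its level was 162.2, 125.7 and 133.5 CPM in the Sham libraries, 45.6, 32.6 and 32.1 CPM in the SCI libraries, and 57.1, 75.9 and 77.1 CPM in the SCI + SCS libraries. No library of one group entered the range of another. The SCI group was 3.87-fold lower than the Sham group, the steepest of the falls among the 8 genes (log2FC = -1.95, standard error 0.18, adjusted p = 0.00125 by Benjamini-Hochberg in the edgeR test). The SCI + SCS group was 2.003-fold lower than the Sham group (log2FC = -1.002, 95% interval -1.37 to -0.63, adjusted p = 0.00767 by Benjamini-Hochberg in the same edgeR test). Reads from Omg and from Nf1, which spans it on the other strand, cannot be told apart where the genes overlap, since no source used here states that counting used the strand. Nf1 itself was at 17.4 to 22.3 CPM in the Sham libraries, 5.34 to 11.1 CPM in the SCI libraries and 10.7 to 13.1 CPM in the SCI + SCS libraries.

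Oligodendrocyte markers moved with both ligand genes. The 8 of 8 myelin and oligodendrocyte genes listed, none of them at 0, summed to 58018 to 81382 CPM in the Sham libraries, 17096 to 32463 CPM in the SCI libraries and 29990 to 35613 CPM in the SCI + SCS libraries. The 5 of 5 oligodendrocyte precursor genes summed to 452.2 to 521.4, 457.6 to 520.6 and 480.5 to 557.3 CPM, ranges that overlap, but its genes, looked at singly after the sums were seen, moved apart. Pdgfra was at 53.1 to 115.7 CPM in the Sham and 136.6 to 216.1 CPM in the SCI libraries, Gpr17 at 40.3 to 57.2 and 7.81 to 14.1 CPM, and Neu4 at 16.4 to 18.6 and 10.2 to 10.7 CPM. The 8 of 8 neuronal genes summed to 2637 to 5217 CPM in the Sham libraries, 445.0 to 1415 CPM in the SCI libraries and 1316 to 2090 CPM in the SCI + SCS libraries. The part of these cells in the levels of Rtn4 and Omg was not tested. Relative to the summed oligodendrocyte genes, Rtn4 had a mean log2 ratio of -6.69 ± 0.26 (SD, n = 3) for Sham, -6.70 ± 0.49 for SCI and -6.93 ± 0.10 for SCI + SCS. The same ratio for Omg was -8.89 ± 0.39, -9.31 ± 0.22 and -8.88 ± 0.15. For Rtn4 the ranges of all 3 groups overlap. For Omg the Sham range overlaps both others, while the SCI libraries (-9.48 to -9.06) were just below the SCI + SCS libraries (-9.04 to -8.74).

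Rtn4r encodes the Nogo receptor NgR1, which binds all 3 myelin ligands, and it moved against the ligands. Its level was 9.42, 10.6 and 12.6 CPM in the Sham libraries, 17.2, 19.9 and 29.6 CPM in the SCI libraries, and 21.6, 10.4 and 11.7 CPM in the SCI + SCS libraries. All SCI libraries were above all Sham libraries. Of the SCI + SCS libraries, replicate 1 fell within the SCI range and the other 2 within the Sham range. Rtn4r was 2.02-fold higher in the SCI group (log2FC = 1.02, 95% interval 0.47 to 1.56, adjusted p = 0.0112 by Benjamini-Hochberg in the edgeR test). It was called with each library left out, with adjusted p between 0.0121 and 0.046. Fibroblast genes, all 5 of 5 found, also moved, and summed to 307.2 to 1426 CPM in the Sham libraries, 2500 to 3998 CPM in the SCI libraries and 1550 to 2672 CPM in the SCI + SCS libraries, and their part was not tested. Neither comparison of the SCI + SCS group passed, with a log2FC of -0.60 against SCI (95% interval -1.36 to 0.16) and 0.43 against Sham (adjusted p = 0.300 and 0.288, adjusted by Benjamini-Hochberg in the same edgeR test).

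Rtn4rl1 and Rtn4rl2 encode the Nogo receptor homologs NgR3 and NgR2. Rtn4rl1 was at 17.4, 23.0 and 11.6 CPM in the Sham libraries, 7.44, 8.64 and 8.43 CPM in the SCI libraries, and 9.51, 12.5 and 13.4 CPM in the SCI + SCS libraries. The SCI libraries were the lowest throughout, and the SCI + SCS libraries lay above them and overlapped the Sham libraries. Rtn4rl1 fell 2.15-fold in the SCI group (log2FC = -1.11, standard error 0.25, adjusted p = 0.0125 by Benjamini-Hochberg in the edgeR test), so that a receptor and its homolog were called in opposite directions. Against Sham, the SCI + SCS group had a log2FC of -0.55 (adjusted p = 0.149 by Benjamini-Hochberg in the same edgeR test), which passed without Sham replicate 3 alone (adjusted p = 0.0301). Without Sham replicate 2, the library where Rtn4rl1 was highest, this log2FC was -0.29 (adjusted p = 0.412 in edgeR). That of SCI against Sham was then -0.86 (adjusted p = 0.0353 in edgeR).

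Rtn4rl2 was scarce, at 17 to 191 counts per library. Its level was 0.58, 2.17 and 0.38 CPM in the Sham libraries, 0.23, 0.77 and 0.25 CPM in the SCI libraries, and 0.67, 0.30 and 0.85 CPM in the SCI + SCS libraries. All 3 groups overlap, and the highest value was in Sham replicate 2. SCI against Sham did not pass (log2FC = -1.35, 95% interval -3.31 to 0.60, adjusted p = 0.206 in edgeR), and without Sham replicate 2 the log2FC was -0.24.

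Lingo1 encodes LINGO-1, the co-receptor of neurons and oligodendrocytes that completes the receptor complex and restrains oligodendrocyte maturation. Its level was 58.8, 40.9 and 26.3 CPM in the Sham libraries, 24.5, 24.8 and 19.1 CPM in the SCI libraries, and 32.0, 48.4 and 48.0 CPM in the SCI + SCS libraries. The SCI libraries were below all others, narrowly so against Sham replicate 3. The fall in the SCI group was 1.87-fold (log2FC = -0.90, 95% interval -1.60 to -0.21, adjusted p = 0.0401 by Benjamini-Hochberg in the edgeR test). It passed with Sham replicate 3 left out (adjusted p = 0.00714) and missed the threshold with any other 1 of the 6 libraries left out, at adjusted p of up to 0.119. The mean levels of the SCI + SCS and Sham groups were 42.8 ± 9.37 and 42.0 ± 16.3 CPM (SD, n = 3), and the 95% interval of their log2FC ran from -0.71 to 0.76.

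Tnfrsf19 encodes TROY, a receptor of the TNF family that can take the place of p75. Its level was 4.01, 4.57 and 4.36 CPM in the Sham libraries, 1.79, 3.01 and 1.88 CPM in the SCI libraries, and 2.85, 3.55 and 3.59 CPM in the SCI + SCS libraries. All Sham libraries were above all injured ones, and the injured groups overlapped through SCI replicate 2. Tnfrsf19 fell 1.96-fold in the SCI group (log2FC = -0.97, standard error 0.26, adjusted p = 0.0215 by Benjamini-Hochberg in the edgeR test). The call was lost without Sham replicate 2, SCI replicate 1 or SCI replicate 3 (adjusted p = 0.0694, 0.0556 and 0.0695). Against Sham, the SCI + SCS group had a log2FC of -0.37 (95% interval -0.77 to 0.03).

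Ngfr encodes p75, the neurotrophin receptor that signals for the Nogo receptor and is made by sensory neurons and by Schwann cells after nerve injury. Its level was 8.55, 90.8 and 12.2 CPM in the Sham libraries, 31.4, 47.7 and 49.0 CPM in the SCI libraries, and 29.3, 17.3 and 34.8 CPM in the SCI + SCS libraries. Sham replicate 2 was above every injured library, and the other Sham libraries were below every one. With all libraries the difference between the SCI and Sham groups had a log2FC of 0.18 and a 95% interval from -1.88 to 2.23 (adjusted p = 0.874 by Benjamini-Hochberg in the edgeR test). Without Sham replicate 2 the log2FC was 2.02 (95% interval 1.33 to 2.70) with an adjusted p of 0.0115 by Benjamini-Hochberg in the same edgeR test, and for SCI + SCS against Sham it was 1.39 with an adjusted p of 0.0569.

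Schwann cell genes, all 6 of 6 found, summed to 3413 to 5327 CPM in the Sham libraries, 6542 to 9841 CPM in the SCI libraries and 5102 to 11152 CPM in the SCI + SCS libraries. Their part in the level of Ngfr was not tested.

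**Figure D3:**
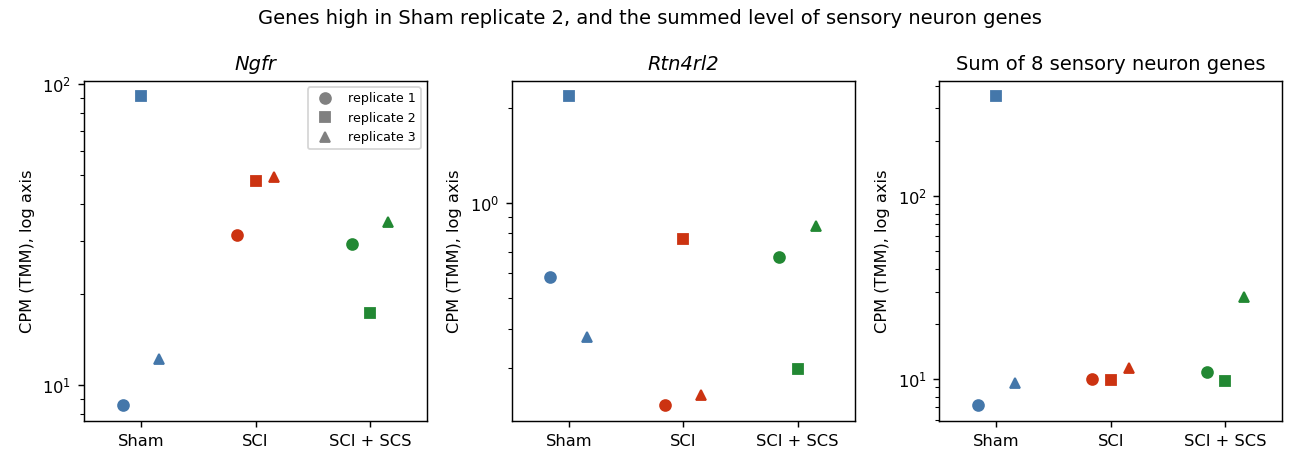
Ngfr, Rtn4rl2 and the summed level of 8 sensory neuron genes in each library, in CPM on log axes, with 1 symbol per rat. Sham replicate 2 is the highest point in all 3 panels, at 90.8, 2.17 and 348.7 CPM.

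Compared with the SCI group, none of the 8 genes was called in the SCI + SCS group in edgeR's quasi-likelihood test, with p-values adjusted after Benjamini and Hochberg over 17663 genes, where 0.00566% of all genes were called higher and 0% lower. At an unadjusted p under 0.05, 4 of the 8 passed, namely Rtn4, Omg, Rtn4rl1 and Lingo1, against 24.2% of all genes tested. For the same 4 genes all SCI + SCS libraries were above all SCI libraries, against 29.5% of all genes tested whose libraries did not overlap in either direction. Omg had a log2FC of 0.94 (95% interval 0.51 to 1.36, adjusted p = 0.0774 by Benjamini-Hochberg in the edgeR test) and Lingo1 one of 0.92 (0.48 to 1.36, adjusted p = 0.0800). Rtn4rl1 had a log2FC of 0.54 (95% interval 0.15 to 0.93) and Tnfrsf19 one of 0.59 (-0.03 to 1.21), with adjusted p of 0.121 and 0.223 by Benjamini-Hochberg in the same edgeR test. Ngfr had a log2FC of -0.65 (95% interval -1.30 to 0.01) and Rtn4rl2 one of 0.56 (-0.91 to 2.02). Of the values that went against the rest, those of Rtn4r and Ngfr, neither was called.

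The count of calls in this comparison depended on the tool. DESeq2, which the study's methods name, called 3 of the 8 genes higher in the SCI + SCS group, with 8.83% of all genes called higher by it. They were Omg (adjusted p = 0.000165), Lingo1 (adjusted p = 0.000475) and Rtn4rl1 (adjusted p = 0.0322), none with a |log2FC| over 1. Rtn4 had an adjusted p of 0.0595 in DESeq2. Without SCI + SCS replicate 1, Lingo1 was called by edgeR as well (adjusted p = 0.0499), in a fit that called 105 genes higher and 64 lower. The 95% intervals of Omg, Lingo1, Rtn4rl1 and Rtn4 in edgeR began above 0, at 1.43-fold, 1.39-fold, 1.11-fold and 1.05-fold.

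Compared with the Sham group, 2 of the 8 genes, Rtn4 and Omg, were called in the SCI + SCS group, both lower and both past a |log2FC| of 1. In edgeR's test over 17640 genes, 16.2% of all genes were called higher, 16.2% lower, and 11.7% at that size. The libraries did not overlap for 3 genes, Rtn4, Omg and Tnfrsf19, and did not for 53.2% of all genes tested. The SCI and SCI + SCS comparisons with Sham share their control libraries. Side by side, the log2FC against Sham was -1.55 and -1.24 for Rtn4, -1.95 and -1.002 for Omg, 1.02 and 0.43 for Rtn4r, and -1.11 and -0.55 for Rtn4rl1. For Lingo1 it was -0.90 and 0.03, and for Tnfrsf19 it was -0.97 and -0.37. For Rtn4rl2 it was -1.35 and -0.79 and for Ngfr 0.18 and -0.45, of which none was called and all rest on Sham replicate 2. Without that library they were -0.24 and 0.34 for Rtn4rl2, and 2.02 and 1.39 for Ngfr.

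**Figure D4:**
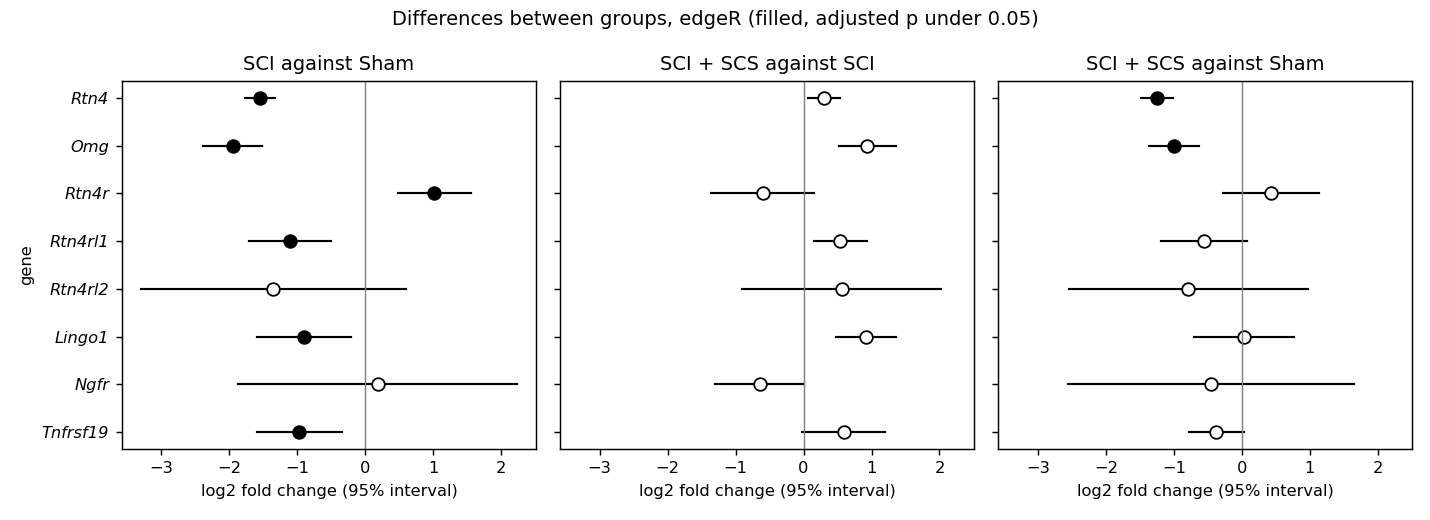
Log2FC of the 8 genes with its 95% interval in the 3 comparisons, from edgeR, with filled points where the adjusted p was under 0.05. In SCI against Sham 6 points are filled, Rtn4r alone to the right of 0, while in SCI + SCS against SCI none is filled and the intervals of Rtn4, Omg, Rtn4rl1 and Lingo1 lie to the right of 0.

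Levels were compared between genes on the FPKM scale, which corrects for length. In the Sham group the order was Rtn4 (197.2 ± 10.5 FPKM, SD, n = 3), Omg (61.2 ± 6.95), Ngfr (9.32 ± 11.8), Lingo1 (7.33 ± 2.86), Rtn4rl1 (4.17 ± 1.36), Rtn4r (4.04 ± 0.63), Tnfrsf19 (1.70 ± 0.15) and Rtn4rl2 (0.50 ± 0.48). The ligand genes thus stood apart from all others, and Tnfrsf19 and Rtn4rl2 stood below the rest. The 4 genes between them overlap from library to library, so their order is not fixed by these data. In the SCI group Rtn4 (76.8 ± 21.3) and Omg (15.8 ± 1.77) were again highest, but Rtn4r (8.35 ± 2.93) stood above Lingo1 (3.73 ± 0.74) in all 3 libraries, and Ngfr (10.6 ± 3.21) overlapped Rtn4r. In the SCI + SCS group Lingo1 (7.19 ± 1.08), Ngfr (6.86 ± 2.28) and Rtn4r (5.57 ± 2.35) overlapped one another.

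As p75 and TROY can fill the same place in the complex, their genes were compared within each library. In FPKM, Ngfr stood 1.33, 12.4 and 1.74 times as high as Tnfrsf19 in Sham replicates 1, 2 and 3, 10.9, 9.90 and 16.4 times in the SCI libraries, and 6.44, 3.05 and 6.06 times in the SCI + SCS libraries. Ngfr was the higher in all 9. The SCI + SCS libraries all had a lower excess of Ngfr than the SCI libraries. The log2 ratio of Tnfrsf19 to Ngfr was higher by 1.30 for SCI + SCS than for SCI (p = 0.1 by an exact two-sided permutation test, the smallest p that 3 rats against 3 allow). Between SCI and Sham the difference was -1.98 (exact permutation p = 0.3), with Sham replicate 2 inside the SCI range. It was -2.99 without Sham replicate 2 and -1.38 without Sham replicate 1. Between SCI + SCS and Sham it was -0.68 (exact permutation p = 0.6), and -1.69 and -0.08 without these same libraries. Leaving out Sham replicate 3 or SCI + SCS replicate 2 moved it to -0.27 and -1.03.

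Lingo1, in FPKM, stood 2.92, 1.91 and 0.92 times as high as Rtn4r in the Sham libraries, 0.61, 0.58 and 0.27 times in the SCI libraries, and 0.72, 1.90 and 1.80 times in the SCI + SCS libraries. The SCI libraries were the lowest and overlapped neither other group. The log2 ratio had a mean difference of -1.91 between SCI and Sham (exact two-sided permutation p = 0.1) and of 1.56 between SCI + SCS and SCI (exact permutation p = 0.1). Between SCI + SCS and Sham the difference was -0.35 (exact permutation p = 0.5), and its sign depended on single libraries, from -0.80 without Sham replicate 3 to 0.10 without SCI + SCS replicate 1. It was 0.03 without Sham replicate 1, -0.59 without SCI + SCS replicate 2 and -0.55 without SCI + SCS replicate 3. In all, 6 comparisons of ratios were made, and none could pass the threshold in a design of this size (smallest exact permutation p after Benjamini-Hochberg adjustment over the 6 = 0.2).

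**Figure D5:**
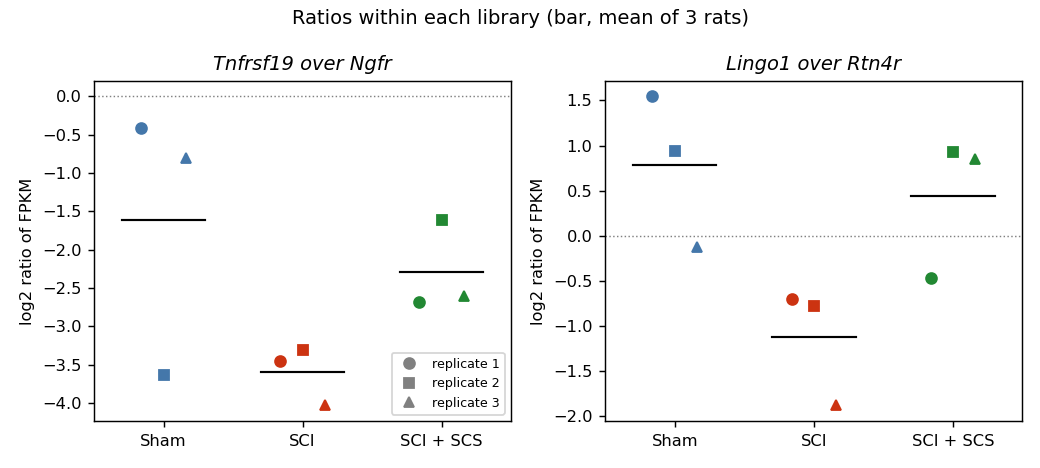
Log2 ratio of FPKM of Tnfrsf19 to Ngfr (left) and of Lingo1 to Rtn4r (right) in each library, with 1 symbol per rat, a bar at each group's mean and a dotted line at equal levels. On the left the SCI libraries lie at -4.03 to -3.31 and the SCI + SCS libraries at -2.69 to -1.61, and on the right the SCI libraries are the lowest, at -1.88 to -0.71.

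Beside the 8 genes, 52 genes of the same pathway were listed by role, and 50 were tested. Adgrb1 and Cfl1 were not tested. In SCI against Sham 10 of the 50 were called higher, 25 lower and 15 not (edgeR, Benjamini-Hochberg over all genes), beside the 24.3% and 25.0% of all genes given above. The median log2FC was -0.46 over the 50 and 0.02 over all genes. Of the other ligands and soluble binders, 4 of 5 fell and 1 rose. Mag, the gene of the myelin-associated glycoprotein, was at 1119 to 1482 CPM in the Sham libraries, 398.6 to 627.2 CPM in the SCI libraries and 689.3 to 820.7 CPM in the SCI + SCS libraries, with no overlap between groups. Its log2FC in SCI against Sham was -1.26 (adjusted p = 0.00421), so the genes of all 3 classical myelin ligands fell. Olfm1, which encodes a secreted binder of the Nogo receptor, fell by 1.55 on the log2 scale, and Lgi1, another secreted binder, by 1.12. Tnfsf13b, the gene of the B cell factor BAFF that can also bind the Nogo receptor, rose by 2.08 on the log2 scale, from 1.59 to 3.07 CPM in the Sham libraries to 8.01 to 11.2 CPM in the SCI libraries.

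Among the other receptors and partners, 3 of 8 rose and 1 fell. The rises were led by Lilrb3 (log2FC 2.86, adjusted p = 0.00949 by Benjamini-Hochberg in the edgeR test) and Pirb (log2FC 2.83, adjusted p = 0.0158), immune receptors of which PirB is known to bind Nogo and MAG. Their sequences are alike, so their counts are uncertain. The sum of microglia and macrophage genes, of which 5 of 6 symbols were found, was also higher after SCI. It was 155.0 to 278.5 CPM in the Sham libraries, 742.4 to 963.8 CPM in the SCI libraries and 666.5 to 819.9 CPM in the SCI + SCS libraries. The injured groups thus overlap in this sum. They did not for Lilrb3 (21.2 to 36.7 CPM in SCI, 4.07 to 10.1 CPM in SCI + SCS) or Pirb (23.6 to 46.8 and 7.11 to 23.3 CPM). The part of these cells was not tested. S1pr2, the gene of a receptor for another stretch of Nogo-A, had a log2FC of 0.66. All 6 of 6 paralogs fell, among them Rtn3 (log2FC -1.44) and Rtn1 (-1.89), reticulons like Rtn4, and Lingo3 (-3.42).

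Of the other partners of p75, 5 of 7 fell and none rose. They included Sort1 (log2FC -0.98), the gene of the sortilin co-receptor for pro-neurotrophins, and Bex3 (-0.68) and Maged1 (-0.56), whose products bind the inner part of p75. Of the 4 proteases that cut these receptors, Adam17 rose (log2FC 0.66) and the other 3 were not called. In the RhoA branch, 5 of 20 rose and 9 fell, beside the same 24.3% and 25.0% of all genes. Rhoc, a close relative of Rhoa, rose from 57.8 to 82.2 CPM in the Sham libraries to 142.5 to 161.8 CPM in the SCI libraries (log2FC 1.11, adjusted p = 0.00214 by Benjamini-Hochberg in the edgeR test). Dpysl2, which encodes the microtubule-binding protein CRMP2, fell from 699.7 to 807.2 CPM to 232.3 to 297.9 CPM (log2FC -1.52, adjusted p = 0.00122), and Rac1 had a log2FC of -0.94.

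In SCI + SCS against SCI none of the 50 was called by Benjamini-Hochberg in the edgeR test, the smallest adjusted p being 0.0719, with 14 under 0.05 before adjustment (24.2% of all genes) and 13 called by DESeq2 in either direction (15.7% of all genes). The median log2FC was 0.19. The smallest p was that of Lilrb3, at 35.6, 36.7 and 21.2 CPM in the SCI libraries and 10.1, 4.07 and 7.48 CPM in the SCI + SCS libraries (log2FC -2.10). Mag had a log2FC of 0.52 (adjusted p = 0.145). In SCI + SCS against Sham 8 of the 50 were called higher and 16 lower, beside 16.2% of all genes in each direction. Mag (log2FC -0.74, adjusted p = 0.0125) was among the lower genes and Tnfsf13b (log2FC 1.73, adjusted p = 0.00827) and Rhoc (0.89) among the higher ones by Benjamini-Hochberg in the same edgeR test.

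The genes whose log2 CPM followed each gene most closely over the 9 libraries were taken from 16279 genes with a symbol. These correlations are a description over 9 points that share the same 3 groups. Rtn4 was followed by Lmbrd1 (Pearson's r = 0.998), Vmp1 and Rab21 (0.995 each), and Omg by Thrb (0.995), Cdip1 and Tmcc2 (0.992 each). Rtn4r was followed by Ggact (0.991), Rarb (0.976) and Ppa1 (0.973), and Rtn4rl1 by Cntnap3 (0.989), Nptx2 (0.988) and Cpne4 (0.981). Lingo1 was followed by Itih3 (0.980), Ankrd6 (0.973) and Kcna3 (0.964), and Tnfrsf19 by Rab23 (0.983), Spen (0.978) and Fut10 (0.977). Ngfr, high in Sham replicate 2, was followed by Gfra3 (0.961), Acp3 (0.946) and Serpinb6a (0.943). Rtn4rl2, at low counts, had the loosest likeness, with Arfgef2 (0.874), Azin2 (0.871) and Bean1 (0.869). No gene was among the 3 closest of more than 1 of the 8.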

How the data were processed

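RNA was sequenced from the T9 to T11 cord of 3 Sham, 3 SCI and 3 SCI + SCS rats, grouped by the condition in the labels, which name 1 batch. The submitters' processing notes name fastp 0.23.2, HISAT2 2.2.1 and mRatBN7.2. The counting program, annotation release and strand setting were not given in the sources used here. The authors deposited raw counts per gene and library, and FPKM, which they had divided by length and library total.

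In R 4.3.3, counts were tested with edgeR 4.0.16 (quasi-likelihood test, TMM, default filter on low counts, 6 libraries per comparison, no covariates), with Benjamini-Hochberg adjustment over all genes and a threshold of 0.05. Standard errors are the size of the log2FC divided by the square root of F. Scripts were tested on simulated data. Alternatives were DESeq2 1.42.0, its size factors, other filters on low counts, all 9 libraries in one fit, a replicate block, summed rows of an identifier, limma 3.58.1 on log2(FPKM + 1) and log2(FPKM + 0.1) (mean FPKM of 0.1 or more), and leaving out each library. Fold changes on the FPKM scale understate low genes. Ratios of FPKM were compared by exact permutation tests.

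Totals were 62844376 to 88358570 counts, and a floor of 3 counts was 0.034 to 0.0477 CPM before scaling by TMM. Of 30507 rows, 4340 had no symbol and 1081 shared an identifier, none of them the 8 genes. The 8 genes and all lists were chosen with earlier results of these data known, and the sensory neuron list after its values were seen. Named genes were the 8, Mag, at most 3 per pathway group with the smallest adjusted p in SCI against Sham, and the 3 most alike genes. A gene of the pathway list is not reported here by name.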

Additional observations from a re-analysis of the deposited data

How the results depend on the processing

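Of the 8 genes, Rtn4, Omg, Rtn4r and Rtn4rl1 were called in SCI against Sham under all 15 alternatives, and 4 to 6 genes were called with each library left out. Calls among all genes fell too, from 4334 higher and 4462 lower to 2853 and 3238 without Sham replicate 2, the fewest. Without Sham replicate 3 they were 4120 and 4243, the most of these fits. In SCI + SCS against SCI, DESeq2 called 3 genes against 0 in edgeR, and leaving out a library gave 0 to 1. Over all genes, edgeR called 1 gene higher and 0 lower there, and DESeq2 1457 and 1138, while edgeR without SCI + SCS replicate 1 called 105 and 64, and without SCI replicate 2 called 6 and 72. The log2FC of Rtn4 there was -0.0045 and -0.0047 with limma on FPKM (pseudocounts of 1 and 0.1). In SCI against Sham, Lingo1 lost its call with limma on log2(FPKM + 1) (adjusted p = 0.0531), and Ngfr ranged from -0.29 to 2.02 on the log2 scale with each library left out and had no adjusted p in DESeq2. In SCI + SCS against Sham, the log2FC of Ngfr was 0.20 and 0.32 with limma on FPKM and -0.92 to 1.39 with each library left out, that of Rtn4rl2 was -1.19 to 0.34, that of Lingo1 was -0.22 to 0.35, and the difference in the log2 ratio of Lingo1 to Rtn4r was -0.80 to 0.10. The cause was not tested.

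Same-numbered rats are different animals, and the main tests did not pair them. The deviations of their libraries correlated by 0.05, -0.06 and -0.13 on average in the 3 comparisons, with single pairs from -0.20 to 0.14. With 3 libraries per group, these values cannot decide whether same-numbered libraries share anything beyond their number. With a replicate block, SCI + SCS against Sham gave 1 call in place of 2, since Omg had an adjusted p of 0.0579, and the log2FC of Ngfr was 0.48. Of the 50 other pathway genes, 4 were then called in place of 24. Among all 17640 genes tested there, the block left 713 called higher and 546 lower, in place of 2861 and 2849. The block changed no other call among the 8 genes. Rtn4rl2 rests on the fewest counts, 17 to 191 per library.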
